A study of Mus musculus with 28 samples.

Results

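The nuclear genes of the respiratory chain were followed across 28 RNA libraries of mouse embryonic stem cells (mESCs) and embryoid bodies (EBs). They were found by name: every gene whose symbol starts with Ndufa, Ndufb, Ndufc, Ndufs or Ndufv (Ndufaf assembly factors left out), Uqcr, Cox4 to Cox8 or Atp5, and Sdha, Sdhb, Sdhc and Sdhd. Names with -ps, which mark pseudogenes, were left out (1 gene). This gave 87 genes of 37583: 38 of complex I, 4 of complex II, 8 of complex III, 18 of complex IV and 16 of complex V, with 3 more (Atp5s, Atp5sl and Cox4nb) that share the names but are not subunits of the chain. Ndufa4 is counted with complex I by its name, although its protein is now placed with complex IV. Of the subunits, 8 are isoforms known mainly from particular tissues or from hypoxia: Ndufa4l2, Cox4i2, Cox6a2, Cox6b2, Cox7a1, Cox7b2, Cox8b and Cox8c. The subunits that mitochondrial DNA encodes were not analysed here.

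PRC2, a histone methyltransferase built on its subunit Eed, and Elongin A (EloA), an elongation factor of transcription whose gene the files call Tceb3, are the subjects of the series by its title. Cells of the CJ7 line were wild type, null for Eed, or carried EloA K754M or EloA K754R, in which a lysine of Elongin A is replaced by methionine or arginine, with 2 mESC and 2 EB libraries per genotype. Cells of the CCE line, written CCE28 in part of the labels, came as mESCs with 3 EloA wild type (+/+) and 3 EloA null libraries, and as EBs in 3 groups of 2 libraries, of which 1 is EloA wild type. For the other 2 CCE EB groups the labels contradict each other: in pair A the titles say EloA null and the data columns heterozygous, and in pair B the reverse, so neither was given a genotype. All mESCs grew on irradiated or mitomycin C treated mouse embryonic fibroblasts with LIF and 2i, the inhibitors PD0325901 and CHIR99021, and were depleted of fibroblasts by plating. EBs, aggregates of differentiating cells, were collected 5 days after LIF withdrawal. The labels do not say whether libraries of a group come from separate cultures or clones, and p-values therefore measure only how far these libraries spread, which may be technical.

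The respiratory chain passes electrons from NADH (complex I) and succinate (complex II) through complex III to oxygen at complex IV, and complex V, the ATP synthase, uses the proton gradient this builds. Its genes are split between the nucleus, which encodes most subunits, and mitochondrial DNA, so its assembly depends on supply from both genomes. Naive mESCs are known to use both glycolysis and respiration, and the transcription factors NRF1 and GABP are known to act on many promoters of these genes.

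The promoters shown are of the 3 genes for subunit c of the ATP synthase rotor, whose mature proteins are identical and of which Atp5g2 differed most between mESCs and EBs among abundant members, and of Uqcr11 and Cox7c, which rose most in Eed null mESCs. The sequences are RefSeq's (GRCm38.p6), while the submitters' processing notes name mm9 for the measurements. Each holds the 250 bases before the annotated start, 5′ to 3′ on the gene's strand, with matches to the NRF1 motif (GCGC, any base, TGCGC) or the ETS motif CCGGAAG, which GABP binds, in capitals. They lie at chr11:96075632-96075881 for Atp5g1, chr15:102671048-102671297 for Atp5g2, chr2:73911327-73911576 for Atp5g3, chr10:80406822-80407071 for Uqcr11 and chr13:86046796-86047045 for Cox7c, all on the minus strand.
Atp5g1: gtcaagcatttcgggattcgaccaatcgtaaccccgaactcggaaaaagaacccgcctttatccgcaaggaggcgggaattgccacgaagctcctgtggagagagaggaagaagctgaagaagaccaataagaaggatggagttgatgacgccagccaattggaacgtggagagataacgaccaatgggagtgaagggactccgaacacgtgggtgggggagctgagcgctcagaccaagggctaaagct
Atp5g2: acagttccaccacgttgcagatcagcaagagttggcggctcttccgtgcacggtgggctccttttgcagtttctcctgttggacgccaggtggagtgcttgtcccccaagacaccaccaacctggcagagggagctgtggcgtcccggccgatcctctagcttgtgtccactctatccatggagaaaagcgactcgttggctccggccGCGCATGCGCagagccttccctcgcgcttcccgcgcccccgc
Atp5g3: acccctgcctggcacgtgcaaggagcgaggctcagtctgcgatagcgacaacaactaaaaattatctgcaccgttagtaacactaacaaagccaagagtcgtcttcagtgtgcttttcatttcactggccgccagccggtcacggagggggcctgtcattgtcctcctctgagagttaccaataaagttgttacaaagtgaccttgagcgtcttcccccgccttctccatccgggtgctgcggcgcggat
Uqcr11: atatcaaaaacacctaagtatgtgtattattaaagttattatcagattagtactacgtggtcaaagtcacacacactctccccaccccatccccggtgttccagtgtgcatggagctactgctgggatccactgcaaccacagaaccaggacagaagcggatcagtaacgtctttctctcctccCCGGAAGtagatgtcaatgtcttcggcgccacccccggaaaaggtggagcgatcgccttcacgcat
Cox7c: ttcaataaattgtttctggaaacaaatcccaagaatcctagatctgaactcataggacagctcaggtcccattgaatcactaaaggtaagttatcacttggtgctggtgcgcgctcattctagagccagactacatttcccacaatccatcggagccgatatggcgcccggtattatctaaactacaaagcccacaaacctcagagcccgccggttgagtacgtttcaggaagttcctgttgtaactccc
Atp5g2 holds an NRF1 match that starts 42 bases before the start site, and Uqcr11 an ETS match 66 bases before it. The other 3 windows hold neither. Of the 87 genes, 67 had a promoter in the RefSeq table. On either strand of these windows the NRF1 motif was in 13 of 67 (19.4%) against 4.2% of the promoters of 27025 genes, and the ETS motif in 12 of 67 (17.9%) against 7.8%. The motifs were counted separately, and a match is only a description of the window.

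Library depth, estimated from the step that 1 read makes in the values and given in units of 1000000 reads, was 23.6 to 39.8 over the EBs and 11.1 to 18.2 in CJ7 mESCs. CCE mESC depth differed by genotype, with 42.8 to 46.3 for wild type and 24.3 to 34.6 for EloA null. Eed fell in Eed null mESCs (log2 change -2.30, limma adjusted p = 0.00474) and EBs (-1.68, adjusted p = 7.37e-05), and Tceb3 fell in EloA null mESCs (-0.68, adjusted p = 0.0229). Tceb3 did not separate pairs A and B (-0.06, adjusted p = 0.869). All 6 stem cell markers (Pou5f1, Nanog, Sox2, Zfp42, Klf4 and Esrrb) were found, and their sum was 1204 and 1581 RPKM in wild type CJ7 mESCs and 99.1 and 121 in wild type CJ7 EBs. All 8 fibroblast markers were found too: Col1a1, Col1a2, Col3a1, Postn, Thy1, Dcn, Lum and Fbn1 summed to between 56.3 and 609 RPKM in mESC libraries, and their part in the mESC results was not tested. In bulk RNA of this kind, fewer cells of a type and less RNA per cell cannot be told apart.

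The subunit genes were among the most abundant RNAs of both stages. Values are RPKM, reads per kilobase of exon scaled to library size, so levels can be set side by side between genes. Of the 87 genes, 35 averaged 100 RPKM or more over the 28 libraries, against 662 of all 37583, and 75 averaged 10 or more, against 6143. In complex I, Ndufa4 averaged 395 RPKM (range 295 to 544) and the accessory subunit Ndufa6 210 (140 to 261). In complex II the membrane anchor Sdhd averaged 149 (115 to 185) and the iron-sulfur subunit Sdhb 66.6 (36.1 to 90.7). The small subunit Uqcr10 averaged 210 (104 to 353) and the core protein Uqcrc1 157 (81.5 to 257) in complex III. Cox4i1, the common form of subunit 4 of cytochrome c oxidase (complex IV), was the most abundant of all at 844 RPKM (579 to 1132), and Cox6b1 followed in its complex at 396 (321 to 556). In complex V the catalytic beta subunit Atp5b averaged 694 (454 to 987) and the alpha subunit Atp5a1 590 (397 to 783). The order of these leaders within a complex was not fixed in every library where their ranges overlap, as those of Atp5b and Atp5a1 do.

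A few ubiquitous subunits were listed far below their partners, although they belong to the same complexes. Ndufs5 averaged 2.15 RPKM, the acyl carrier protein Ndufab1 3.40, Ndufb2 6.62 and Uqcrq 7.28 (named after their values were seen). Many subunit genes have processed copies elsewhere in the genome, and how reads shared with such copies were counted is not given in the sources used here, so the levels of single subunits are uncertain. At the bottom were isoforms of muscle and testis: Cox8c at 0.0374 RPKM, the ATP synthase relative Atp5l2 at 0.0675, Cox6a2 at 0.200 and Cox8b at 0.472.

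**Figure D1:**
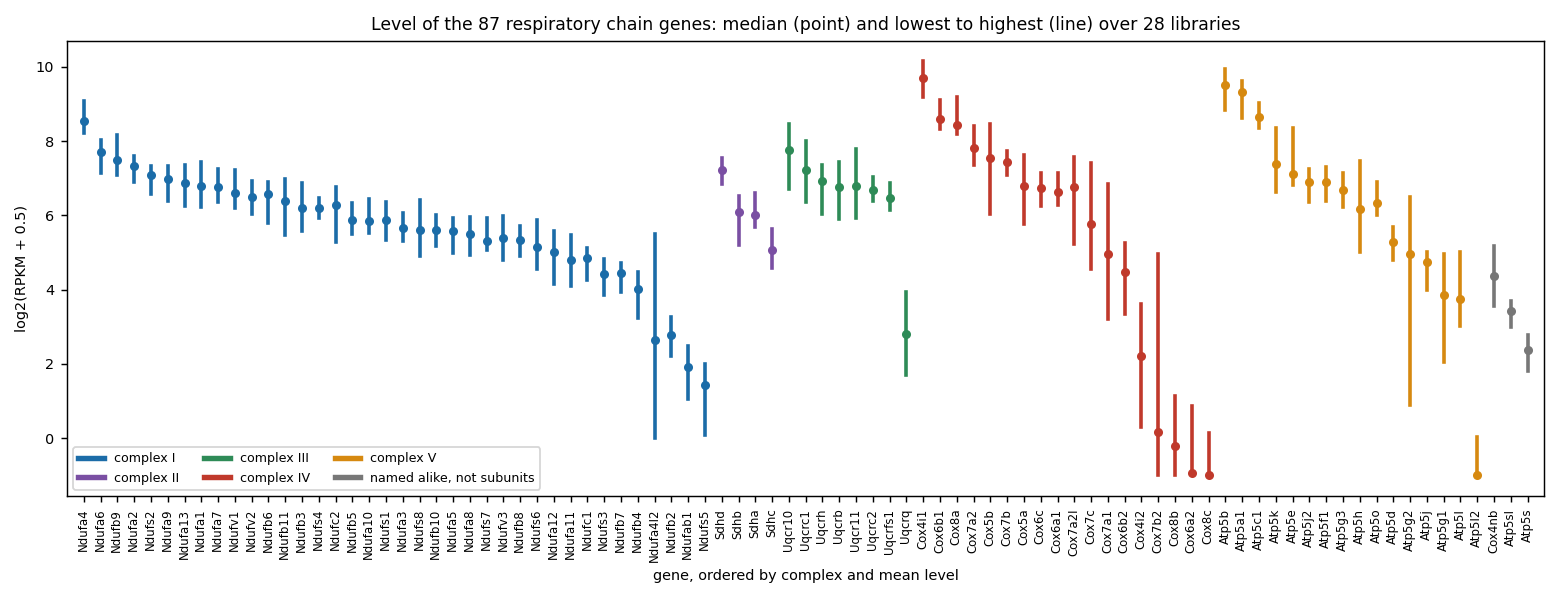
Median (point) and lowest to highest value (line) of each of the 87 genes over the 28 libraries, as log2(RPKM + 0.5), ordered within each complex. Cox4i1 and Atp5b lie at the top of complexes IV and V, and the longest lines are those of Cox7b2, Atp5g2 and Ndufa4l2.

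Within a stage the abundant members varied little between libraries. Of the members at 10 RPKM or more in every mESC library (70 genes), 82.9% differed by less than 2-fold between the lowest and the highest of the 14 libraries, against 65.2% of the 4656 genes past the same level. The median ratio of highest to lowest was 1.60 for the members and 1.79 for all such genes. In EBs the share was 74.6% of 71 members against 70.3% of 4261 genes, with medians of 1.65 and 1.73. These are descriptions over libraries of all genotypes, with no test.

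mESCs and EBs were set side by side as a description only, since the stages were deposited in separate tables and no test was run between them. The largest difference of an abundant member was in Atp5g2, which with Atp5g1 and Atp5g3 encodes subunit c, the ring that turns in the ATP synthase. Atp5g2 was 1.55 and 2.97 RPKM in the wild type CJ7 mESC libraries and 70.1 and 89.4 in the wild type CJ7 EB libraries, a ratio of means of 35.3. In CCE wild type it was 5.39, 7.40 and 7.82 in mESCs and 72.5 and 69.4 in EBs, a ratio of 10.3. No EB library of any genotype was below 53.2 RPKM and no mESC library above 7.82.

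Atp5g3 moved the other way in share. It made up 80.8 to 94.1% of the summed RPKM of the 3 genes in the mESC groups and 45.2 to 56.8% in the EB groups (means of groups), while Atp5g2 went from 1.7 to 5.04% in mESCs to 31.9 to 45.0% in EBs. Atp5g1 held 4.25 to 14.2% in mESCs and 7.51 to 14.8% in EBs. Within mESCs the lines differed in Atp5g1: it was 3.67 to 9.48 RPKM in the 8 CJ7 libraries and 17.7 to 21.1 in the 6 CCE libraries, with no overlap. The 3 genes share much of their coding sequence, so reads that fit more than 1 of them make the split uncertain.

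**Figure D2:**
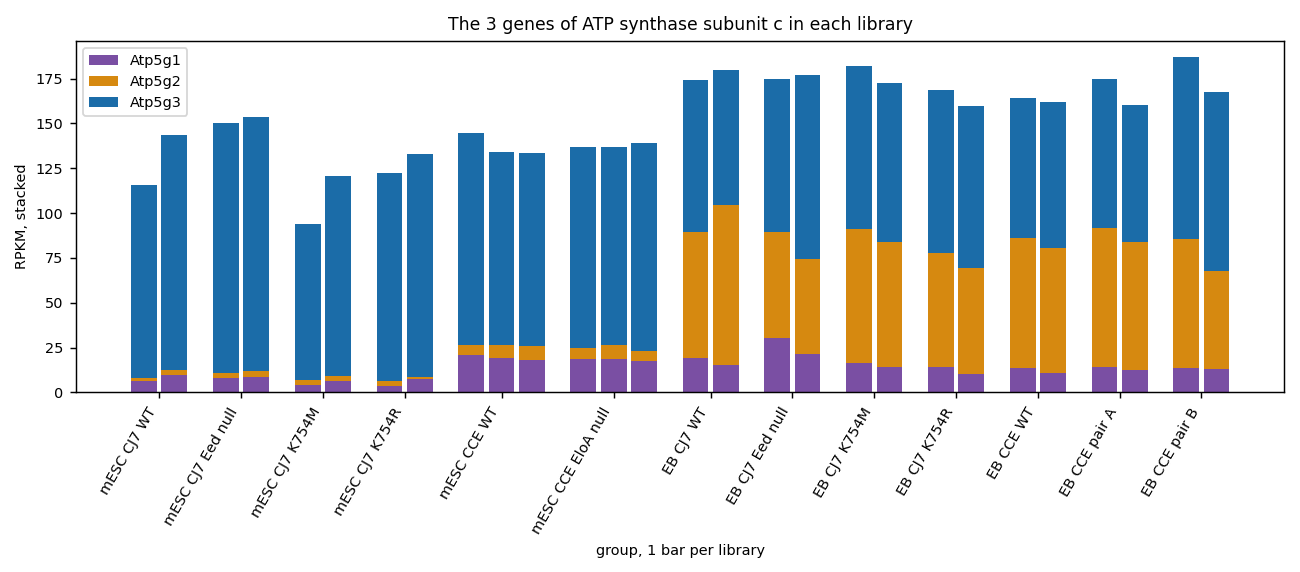
RPKM of Atp5g1, Atp5g2 and Atp5g3 stacked for each of the 28 libraries, grouped by stage, line and genotype. Atp5g2 is a thin layer in every mESC library (at most 7.82 RPKM) and lies between 53.2 and 89.4 RPKM in every EB library.

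For 8 members all EB libraries lay above all mESC libraries in each of the 5 genotypes with clear labels at both stages (the 4 CJ7 genotypes and CCE wild type). The CJ7 genotypes share the same culture and handling, so they are not independent repeats. Named after their values were seen, these were, besides Atp5g2, Atp5h of the ATP synthase stalk (log2 ratio of EB to mESC means 1.32 to 1.73), Cox7c (0.92 to 1.96), Uqcrb (0.52 to 1.13), Cox5b (0.34 to 1.90), Ndufb11 (0.48 to 1.36), Ndufab1 (0.49 to 1.06) and Ndufs3 (0.45 to 0.80). They come from complexes I, III, IV and V. The reverse held for 20 members. Of the 82 members that averaged 1 RPKM or more in each genotype, 9.76% lay above and 23.2% below in this way. Over the 12421 genes at that level the shares were 14.7% and 22.4%. The share of higher members was thus below that of all genes, and the share of lower members near it. Cox7b2, below that level in CCE, is not in the share. Largest among them were the isoforms Cox7b2 and Ndufa4l2 (log2 ratio -3.48 to -2.18 for Ndufa4l2) and Cox7a1 (-2.06 to -1.13). The common subunits Cox5a (-1.48 to -0.72), Uqcrq (-1.46 to -1.20), Uqcrc1 (-1.35 to -0.60), Uqcr10 (-1.31 to -0.78), Atp5b (-0.93 to -0.53) and Cox4i1 (-0.67 to -0.38) were also lower in EBs. At least 2-fold in all 5 genotypes were 2 of the members higher in EBs and 4 of those lower.

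The balance of higher and lower members varied between genotypes, with 3 mESC libraries in CCE wild type and 2 elsewhere, and was not tested. In CCE wild type 11 of 82 members lay above and 55 below their mESC values in EBs without overlap, against 34.1% above and 43% below over all genes, and the median log2 ratio was -0.36 against -0.09. In CJ7 wild type 33 of 83 lay above and 32 below, against 33.1% and 45.1% of all genes. Within CJ7 the counts above and below were 16 and 39 in Eed null (median log2 ratio -0.18), 29 and 33 in K754M (-0.05) and 22 and 34 in K754R (-0.09). Over all genes the shares were 30.7% and 42.5% in Eed null (median -0.09). In K754M they were 31.8% and 43.9% (-0.15), and in K754R 33.5% and 41.4% (-0.10). The sum over all 84 subunits was 9243 and 9816 RPKM in CJ7 wild type mESCs and 9098 and 9524 in EBs, ranges that overlap. In CCE wild type it was 10268 to 10986 in mESCs and 7709 and 8600 in EBs, ranges that do not.

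The first comparison with wild type asked which genes of the chain differ when Eed is lost in CJ7 mESCs. Small accessory subunits of complexes I, III and IV and subunits of the ATP synthase rose, and no member fell. Of 85 members tested, 12 were called higher and 0 lower in limma at an adjusted p below 0.05, where 8.59% of all 21012 genes were called (5.32% higher, 3.27% lower). At an unadjusted p under 0.05 there were 28 members. The median log2 change was 0.22 for the members and 0.05 for all genes tested, and 67 members had a positive and 18 a negative change. In 56 members both Eed null libraries lay above both wild type libraries, and in 9 below, against 36.6% and 28.1% of all genes.

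The largest rise was of Uqcr11, the smallest subunit of complex III. Its RPKM was 153 and 148 with Eed lost and 60.9 and 64.8 in wild type (log2 change 1.25 ± 0.22 SE, n = 2 per group, limma adjusted p = 0.0230). Uqcrh, the hinge protein near cytochrome c in the same complex, was 132 and 125 against 65.6 and 75.2 (0.87 ± 0.16, limma adjusted p = 0.0261). The groups were well apart for both genes.

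In complex IV the small subunit gene Cox7c was 48.8 and 53.8 RPKM against 25.6 and 23.1 (1.06 ± 0.14, limma adjusted p = 0.00977). Cox6c, another small subunit, was 138 and 139 against 83.5 and 75.2 (0.80 ± 0.11, limma adjusted p = 0.0114). Cox7a2l, which is known to join complexes III and IV into supercomplexes, was 135 and 130 against 71.9 and 59.4 (1.01 ± 0.13, limma adjusted p = 0.00802). All 3 were higher in both Eed null libraries than in either wild type library.

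In complex I the accessory subunit Ndufa12 was 34.8 and 31.7 RPKM against 20.1 and 17.4 (0.81 ± 0.15, limma adjusted p = 0.0242), and Ndufb4 of the membrane arm was 17.9 and 15.7 against 9.48 and 10.6 (0.71 ± 0.16, limma adjusted p = 0.0433). In complex V the epsilon subunit Atp5e was 207 and 203 against 141 and 119 (0.66 ± 0.13, limma adjusted p = 0.0293). The other 4 called genes (outside the 8 largest) were Ndufc1, Atp5f1, Ndufa2 and Ndufa4, with log2 changes from 0.53 to 0.65. By complex, 5 of 38 members of complex I rose, 0 of 4 of complex II, 2 of 8 of complex III, 3 of 17 of complex IV and 2 of 15 of complex V, with medians of 0.22, 0.10, 0.11, 0.22 and 0.26. Of the 12 genes called, 9 had a promoter window, of which 1 held the NRF1 motif and 3 the ETS motif.

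Other members went the other way without passing the test. Sdha, the flavoprotein of succinate dehydrogenase, was 63.6 and 65.0 RPKM in Eed null against 96.9 and 87.5 in wild type (-0.52 ± 0.13, limma adjusted p = 0.0560; named after its values were seen). The 7 tissue isoforms tested had a median change of -0.31, and 6 of them a negative one, with none called.

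**Figure D3:**
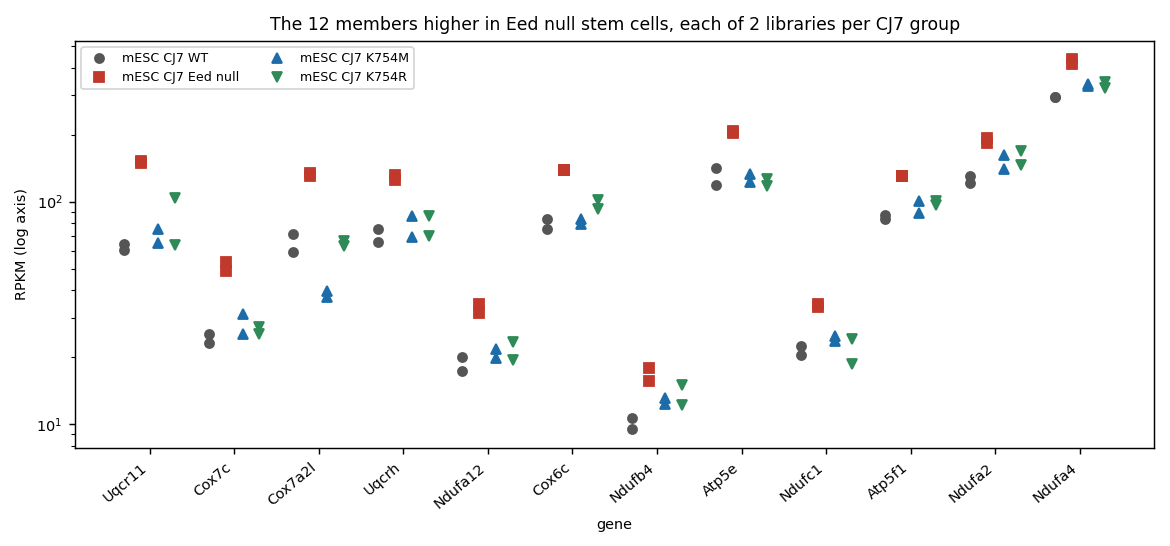
RPKM (log axis) of the 12 members called higher in Eed null CJ7 mESCs, with 1 point for each of the 2 libraries of wild type, Eed null, K754M and K754R. For each gene both Eed null points lie above the other 6. The 12 genes were picked for high values in the Eed null libraries.

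The K754M and K754R libraries of the same stage, which took no part in that contrast except in its estimate of spread, were below Eed null for these genes. The 12 were picked for high values in the Eed null libraries, so their order here is partly set by that choice. All 12 were higher in both Eed null libraries than in all 6 other CJ7 mESC libraries. Over all tested members this held for 44 of 85, and 1 was below all 6, against 18.2% above and 11.5% below over all genes. The K754M and K754R libraries did not all lie with the wild type. Both K754M libraries were above both wild type libraries in 6 of the 12 and below them in 1 (Cox7a2l). Both K754R libraries were above both wild type libraries in 5. Over all 85 members the K754M libraries lay above in 17 and the K754R libraries in 21, against 18.7% and 20.7% of all genes. Uqcr11, for instance, was 65.5 and 75.5 RPKM in K754M and 63.9 and 104 in K754R. The 12 were picked for CJ7 wild type values below the Eed null values, so a place between them is partly set by that choice. No share of all genes is given for the CCE counts that follow. CCE wild type mESCs were above both CJ7 wild type libraries in 11 of the 12, and in 10 also below both Eed null libraries, as for Uqcr11 (116 to 123 RPKM) and Cox7c (36.9 to 39.2). The exception to the first count was Atp5e (131 to 132 RPKM), within the range of CJ7 wild type. The sum of the 84 subunits was 10915 and 11386 RPKM in Eed null against 9243 and 9816 in CJ7 wild type.

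Leaving out a library left 1 of the groups with a single library, which was then assumed to vary as the other groups do, and most calls were lost although the changes stayed close. Without wild type library 1 only Cox7a2l was called (limma adjusted p = 0.0324), and without wild type library 2 or either Eed null library none was. The log2 change of Uqcr11 was 1.21 to 1.30 over these refits, that of Cox7c 0.99 to 1.13 and that of Cox6c 0.73 to 0.88. The fibroblast marker sum was 164 and 243 RPKM in the Eed null and 129 and 172 in the wild type libraries, and the day 5 marker sum (T, Mesp1, Kdr, Fgf5, Gata4 and Gata6) 5.69 and 6.46 against 1.77 and 1.80. Malat1, a nuclear RNA, was 591 and 639 RPKM in the Eed null and 958 and 673 in the wild type libraries. In K754M it was 968 and 734, and in K754R 1046 and 975. Whether it goes with the result was not tested.

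Genes that serve the chain were called about as often as all genes (8.59%) in Eed null mESCs, and in both directions. Of 29 assembly factors tested (30 of the 43 listed were found by these names) 1 rose, the complex I factor Ndufaf4 (27.3 against 14.2 RPKM, log2 change 0.93, limma adjusted p = 0.0278). The copper chaperone Sco1 (16.0 against 30.7, -0.92, limma adjusted p = 0.0110) and Surf1 (13.0 against 22.9, -0.80, limma adjusted p = 0.0204), both needed to build complex IV, fell. Of 14 citric acid cycle genes 1 fell, Ogdh of the oxoglutarate dehydrogenase (20.1 against 41.7, -1.03, limma adjusted p = 0.00413), and of 14 regulators of mitochondrial genes 1 rose, the nuclear receptor Esrra (19.6 against 11.7, 0.72, limma adjusted p = 0.0436). None of the 3 cytochrome c and c1 genes was called.

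The lysine substitutions were compared with wild type CJ7 mESCs to ask whether that residue of Elongin A matters for these RNAs. These comparisons share their wild type libraries with the Eed null comparison. Libraries of a group agreed least in K754M and K754R mESCs, with an SD of their log2 ratio of 0.59 and 0.66. It was 0.44 in wild type and 0.24 in Eed null mESCs. An absence of calls here therefore does not show that levels were the same. No member was called in K754M mESCs, where 0% of all genes were called by limma, and 7 members had an unadjusted p under 0.05. The smallest p was that of Cox7a2l, at 39.6 and 37.2 RPKM against 71.9 and 59.4 in wild type (log2 change -0.76 ± 0.13, 95% interval -1.07 to -0.45, limma adjusted p = 0.120). Next were Uqcr10 (-0.54, limma adjusted p = 0.217) and the ATP synthase subunit g gene Atp5l (0.51, limma adjusted p = 0.345). The median change was -0.01 for members and 0.03 for all genes.

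In K754R mESCs no member was called either, with 0.162% of all genes called and 12 members at an unadjusted p under 0.05. Cox7a1, the heart and muscle form of a complex IV subunit, was 33.4 and 34.4 RPKM against 114 and 90.1 in wild type and 89.1 and 63.0 in K754M (K754R against wild type -1.56 ± 0.19, 95% interval -2.02 to -1.11, limma adjusted p = 0.0582). The K754R libraries were the lowest of the CJ7 mESCs. Sdhb followed at 41.9 and 49.4 against 71.8 and 67.3 (-0.61 ± 0.12, limma adjusted p = 0.114), and Atp5h at -0.59 (limma adjusted p = 0.119). Cox7b2, a testis form of the same family as Cox7b, was 30.9 and 21.8 RPKM in K754R, 3.53 and 8.72 in K754M and 6.53 and 7.90 in wild type (1.78 ± 0.39 against wild type, 95% interval 0.86 to 2.71, limma adjusted p = 0.130). Both K754R libraries were thus above every other CJ7 mESC library for this gene, but the change did not pass the test over all genes. The fibroblast markers summed to 165 and 609 RPKM in the K754R libraries, 129 and 306 in K754M and 129 and 172 in wild type. No member was called between K754R and K754M, with 0.00952% of all genes called and 8 members at an unadjusted p under 0.05 in limma.

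Loss of Elongin A was examined in CCE mESCs, with 3 libraries per group. No member was called by limma, while 3.35% of all 18460 genes were (2.12% higher, 1.23% lower), and 9 members had an unadjusted p under 0.05. Changes were small: 96.5% of the 85 members tested lay within 1.2-fold of wild type, the median change was -0.04 against -0.02 for all genes, and 59 members had a negative and 26 a positive change. The smallest p-values were of Atp5e, at 141, 156 and 147 RPKM against 132, 131 and 131 (0.17 ± 0.05, limma adjusted p = 0.136), and of the rotor shaft gene Atp5c1, at 349, 393 and 390 against 419, 459 and 460 (-0.24 ± 0.07, 95% interval -0.41 to -0.08, limma adjusted p = 0.136). For each gene the groups did not overlap. Cox4i2, the hypoxia and lung form of subunit 4, was 1.95, 2.87 and 2.83 against 3.35, 4.11 and 5.26 (-0.63 ± 0.19, limma adjusted p = 0.151). Fibroblast markers summed to 56.3 to 166 RPKM in the wild type libraries and 119 to 239 in those without EloA.

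Libraries with the same replicate number deviated together in CCE mESCs, though EloA null library 2 did so as much with wild type library 3. A fit with the replicate number as a block called 8 members, 3 higher and 5 lower, where 12.4% of all genes were called (6.67% higher, 5.72% lower). Named after their values were seen, these 8 were Atp5c1 (log2 change -0.24, limma adjusted p = 0.0111 with the block), Ndufa13 (0.19, 0.0177), Ndufa7 (-0.24, 0.0189), Cox4i2 (-0.63, 0.0195), Ndufa4l2 (-0.67, 0.0211), Cox7a2l (-0.15, 0.0371), Atp5e (0.17, 0.0480) and Uqcrh (0.19, 0.0481). Of these 8 only Cox4i2 and Ndufa4l2, the forms known from hypoxia, changed by more than 1.2-fold. Among the lists around the chain without the block, the inner membrane insertase Oxa1l (31.1 against 22.2 RPKM, 0.48, limma adjusted p = 0.00597) and the succinate-CoA ligase gene Sucla2 (58.3 against 42.2, 0.46, limma adjusted p = 0.010) rose. The citric acid cycle genes Idh3b (-0.36, limma adjusted p = 0.0123) and Fh1 (-0.34, limma adjusted p = 0.0133), Cyct, the testis cytochrome c (7.81 against 10.5 RPKM, -0.40, limma adjusted p = 0.0201), and the mitochondrial DNA polymerase Polg (-0.29, limma adjusted p = 0.0306) fell.

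**Figure D4:**
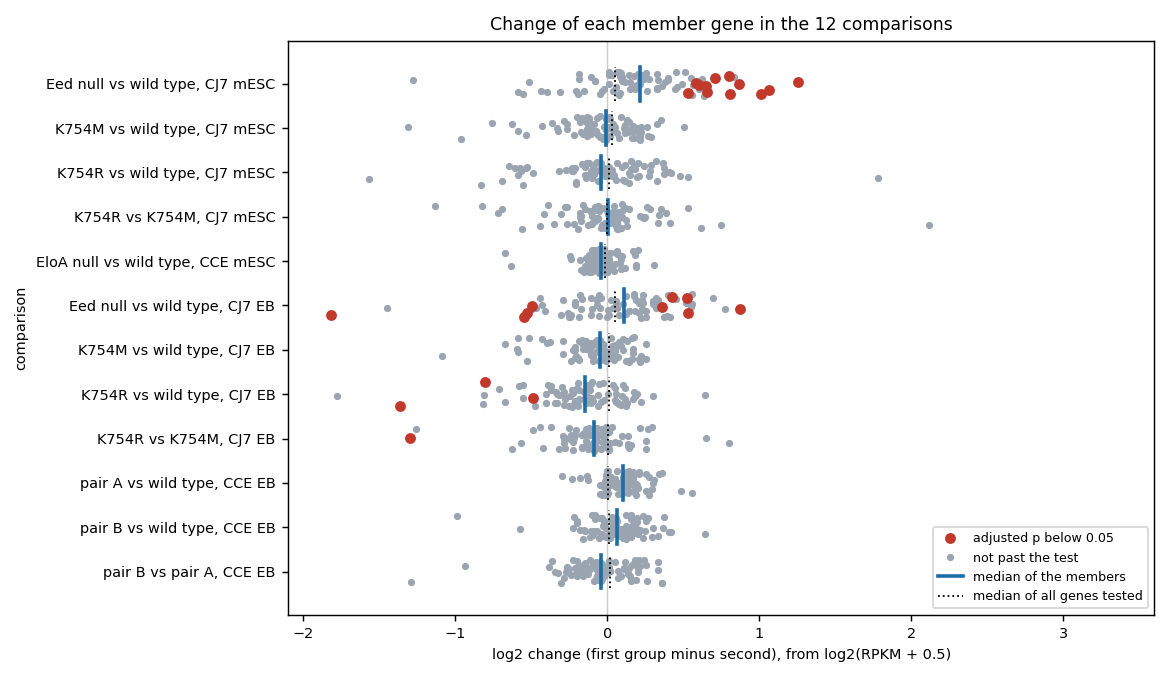
Log2 change of each tested member in the 12 comparisons (first group minus second, from log2(RPKM + 0.5)); red points passed limma's test at an adjusted p below 0.05, blue lines are medians of the members and dotted lines medians of all genes. The member median lies farthest above that of all genes in Eed null mESCs (0.22 against 0.05) and farthest below it in K754R EBs.

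In Eed null EBs members of several complexes were called against wild type in both directions, but a smaller share than of all genes. Of 84 members tested, 5 rose and 4 fell in limma without a replicate block, in all 10.7% of them. Over all 19300 genes 30.4% were called (19.2% higher, 11.2% lower). In 21 members both Eed null libraries lay above both wild type libraries, and in 14 below, against 34.9% and 27% of all genes. At an unadjusted p under 0.05 there were 21 members, and the median change was 0.11 against 0.05 for all genes.

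Cox4i2 showed the largest change. It was 1.12 and 0.731 RPKM in Eed null against 4.13 and 4.85 in wild type (log2 change -1.82 ± 0.20 SE, n = 2 per group, limma adjusted p = 0.00062), and 4.17 and 4.34 in K754M. Ndufa8, an accessory subunit of complex I, was 51.2 and 46.3 against 33.3 and 34.2 (0.52 ± 0.11, limma adjusted p = 0.0104). These 2 genes were called whichever library was left out, and no other member was.

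Also higher were Atp5e at 328 and 196 RPKM against 144 and 133 (0.87 ± 0.24, limma adjusted p = 0.0299), with Eed null libraries far from each other, and Atp5a1 at 651 and 532 against 417 and 397 (0.53 ± 0.16, limma adjusted p = 0.0382). Atp5e thus rose in Eed null cells at both stages. Cox5a was 92.4 and 105 against 70.7 and 75.8 (0.42 ± 0.13, limma adjusted p = 0.0487), and Sdhc, which anchors complex II in the membrane, 32.3 and 29.2 against 24.2 and 23.4 (0.36 ± 0.10, limma adjusted p = 0.0343). In each of these genes both Eed null libraries were above both wild type libraries.

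The lower members besides Cox4i2 were Atp5s, Ndufa6 and Atp5g2. Atp5s, named after the ATP synthase but no subunit of it, was 3.55 and 4.14 RPKM against 5.36 and 6.33 (-0.55 ± 0.16, limma adjusted p = 0.0396). Ndufa6 was 188 and 140 against 221 and 248 (-0.53 ± 0.16, limma adjusted p = 0.0437). Atp5g2, the subunit c gene that was low in mESCs, was 58.9 and 53.2 against 70.1 and 89.4 (-0.50 ± 0.14, limma adjusted p = 0.0343), which remained far above the 2.56 and 3.33 RPKM of Eed null mESCs.

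The Eed null EBs also carried more stem cell RNA. The sum of the 6 stem cell markers was 631 and 685 RPKM against 99.1 and 121 in wild type, and all 6 rose. The sum of the day 5 markers was 49.5 and 64.6 against 138 and 181, and 5 of the 6 fell. In the CCE wild type, which shares no library with this comparison, mESCs had more Ndufa8 (49.6 against 31.1 RPKM in EBs), Atp5a1 (716 against 472), Cox5a (193 against 68.8) and Sdhc (40.1 against 26.5) than EBs. They had less Atp5g2 (6.87 against 71.0) and Atp5s (3.28 against 5.28), as Eed null EBs had against wild type. Ndufa6 (236 against 165) did not follow that order, nor did Atp5e (131 against 129) and Cox4i2 (4.24 against 5.82), which overlapped between the stages. Which part of the result goes with the share of stem cells was not tested.

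Eed null EB library 1 stood above library 2 in most members (68 of 80, median ratio 1.31). Which members were called depended on the library that was left out. The log2 change of Atp5e was 0.50 to 1.25 over these refits, and that of Ndufa8 0.45 to 0.59. The sum of the 84 subunits was 11637 and 8656 RPKM in Eed null against 9098 and 9524 in wild type, so the groups overlap.

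Counts among genes that feed and serve the chain stood beside 19.2% of all genes higher and 11.2% lower in Eed null EBs, a background that makes small counts no result about a list. Of 14 citric acid cycle genes 4 rose and none fell, led by the malate dehydrogenase Mdh2 (63.8 against 35.7 RPKM, log2 change 0.83, limma adjusted p = 0.00224) and the isocitrate dehydrogenase Idh2 (89.6 against 51.7, 0.77, limma adjusted p = 0.00669). Of 3 cytochrome genes 2 rose: Cyct (5.22 against 0.551, 2.56, limma adjusted p = 0.00439) and Cyc1, the cytochrome of complex III (84.5 against 63.6, 0.41, limma adjusted p = 0.0424). Assembly factors had 3 rises and 1 fall of 29: Atpaf1 of the ATP synthase (0.73), the RNA-binding Lrpprc (0.60) and the copper chaperone Cox17 (0.50) rose, and Tmem126b of complex I fell (-0.60, limma adjusted p = 0.0103). Regulators had 3 rises, such as Esrra (0.79, limma adjusted p = 0.00326) and Gabpa (0.49, limma adjusted p = 0.0131), and 1 fall of 14, Polg2 (-0.80, limma adjusted p = 0.0248). Esrra rose at both stages. None of the 7 core subunits of complex I was called, and 2 of the 5 subunits of the F1 head of the ATP synthase were.

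In the fit without a replicate block, 3 members were called lower in K754R EBs than in wild type and none higher. This share was below that of all genes, so the count is no result about the members. Of 84 tested, 3.57% fell in limma, where 9.68% of all genes were called (4.82% higher, 4.85% lower), and 14 members had an unadjusted p under 0.05. In 36 members both K754R libraries lay below both wild type libraries and in 10 above, against 27.2% and 30% of all genes. The median change was -0.14 for members and 0.01 for all genes.

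Cox4i2 was 1.29 and 1.59 RPKM in K754R against 4.13 and 4.85 in wild type (log2 change -1.36 ± 0.20 SE, n = 2 per group, limma adjusted p = 0.00986) and against 4.17 and 4.34 in K754M (-1.30 ± 0.20, limma adjusted p = 0.0196). Only the Eed null EBs were lower. In the second of these comparisons it was the only member called, where 3.62% of all genes were (1.72% higher, 1.9% lower), with 7 members at an unadjusted p under 0.05. Uqcrq, which binds near the quinone site of complex III, was 2.84 and 2.80 against 6.09 and 4.61 (-0.81 ± 0.18, limma adjusted p = 0.0368), and Ndufb4 15.6 and 15.0 against 21.5 and 21.9 (-0.49 ± 0.10, limma adjusted p = 0.0309). Uqcrq was as low in K754M EBs (3.54 and 2.77), where it did not pass the test (-0.67, limma adjusted p = 0.157).

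Leaving out libraries changed these calls. Against wild type the calls of Uqcrq and Ndufb4 were lost in every refit, and that of Cox4i2 in most. The log2 change over these refits was -1.48 to -1.25 for Cox4i2, -0.99 to -0.62 for Uqcrq and -0.52 to -0.46 for Ndufb4. The Cox4i2 difference from K754M was lost without any 1 of its 4 libraries. K754R EBs also differed in markers: the fibroblast list summed to 22.0 and 27.0 RPKM against 3.73 and 5.33, with 5 of 7 tested members higher, and the stem cell markers to 14.0 and 19.0 against 99.1 and 121, with 3 of 6 lower. Their part in the result was not tested. Of the 29 assembly factors tested 6 fell and none rose, where 4.85% of all genes fell, and the median change of the list was -0.16 against 0.01 for all genes. This difference was not tested. Among the 6 were Cox11 (2.55 against 5.44 RPKM, -0.96, limma adjusted p = 0.0182), Lyrm7 of complex III (-0.88, limma adjusted p = 0.0335), Nubpl of complex I (-0.63, limma adjusted p = 0.0443) and Cox17 (-0.61, limma adjusted p = 0.0459). Of the regulators the mitochondrial rRNA methyltransferase Tfb1m fell (-0.62, limma adjusted p = 0.0451).

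In K754M EBs no member passed limma's test, where 0.565% of all genes were called and 4 members had an unadjusted p under 0.05. Cox7a2l was again first by p, at 67.8 and 60.4 RPKM against 140 and 133 in wild type (-1.09 ± 0.20, 95% interval -1.55 to -0.62, limma adjusted p = 0.0738). The K754M libraries held the 2 lowest Cox7a2l values of the 14 libraries at each stage: the next was 59.4 RPKM in mESCs and 101 in EBs. K754R was at 66.6 and 63.0 RPKM in mESCs and 124 and 101 in EBs, near wild type (K754R against wild type -0.01 and -0.28, limma adjusted p = 0.983 and 0.407). K754R against K754M was 0.75 in mESCs (limma adjusted p = 0.145) and 0.80 in EBs (0.0775), so the difference between the substitutions did not pass either.

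The CCE EB pairs were close to wild type in the fit without a replicate block. In pair A no member was called by limma, nor any gene (0% of 17735), and 3 members had an unadjusted p under 0.05, of which Cox5a (-0.30) and Ndufa6 (0.31) were first (limma adjusted p = 0.708 for each) and Cox7b (0.34) next (0.737). The median change was 0.10 against 0.00 for all genes. In pair B none was called among 0.135% of all genes, with 3 at an unadjusted p under 0.05: Atp5g3 (0.34, limma adjusted p = 0.177), Cox6a1 (0.30, 0.260) and Ndufa3 (0.26, 0.274). Between pair B and pair A, where 0.44% of genes were called, no member passed and 7 had an unadjusted p under 0.05. Cox7a1, at 8.76 and 9.82 RPKM in pair B against 16.4 and 20.1 in pair A, was first (-0.93, limma adjusted p = 0.148), before Atp5g3 (0.33, 0.149) and Cox6a1 (0.33, 0.180). Wild type lay across both pairs for Cox7a1, at 10.7 and 18.4 RPKM.

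The isoforms Cox7b2, Ndufa4l2, Cox7a1 and Cox4i2 had, with Atp5g2, the widest ranges of all members over the 28 libraries on the log2 scale. Ndufa4l2, a relative of Ndufa4 that hypoxia is known to induce, was 29.1 and 12.1 RPKM in CJ7 wild type mESCs, 45.1 and 6.42 in K754M, 20.0 and 5.21 in K754R and 13.3 and 11.5 in Eed null, so libraries of 1 group differed by up to several fold. In CCE wild type mESCs it was 8.30, 25.6 and 27.5 RPKM, and no EB library was above 6.51. Cox4i2 followed a like pattern within the mESC groups, with 11.7 and 3.50 RPKM in K754M, 5.65 and 2.03 in K754R and 6.69 and 4.03 in wild type. In each of these 3 groups the same library was higher for both genes.

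In mESCs Cox7b2 differed between the lines, and Cox7a1 between their wild types. For Cox7a1 the lines overlapped, since both CJ7 K754R libraries lay within the range of CCE wild type. Cox7a1 was 32.4, 35.5 and 36.7 RPKM in CCE wild type mESCs against 114 and 90.1 in CJ7 wild type, and Cox7b2 0.476 to 1.28 over the 6 CCE mESC libraries against 3.53 to 30.9 over the 8 of CJ7. In EBs Cox7b2 was at most 1.7 RPKM and listed at 0 in 6 libraries. Cox6b2, known from testis, was present in every library at 9.75 to 37.9 RPKM. The lines were not tested against each other, and line, depth and culture cannot be told apart here.

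**Figure D5:**
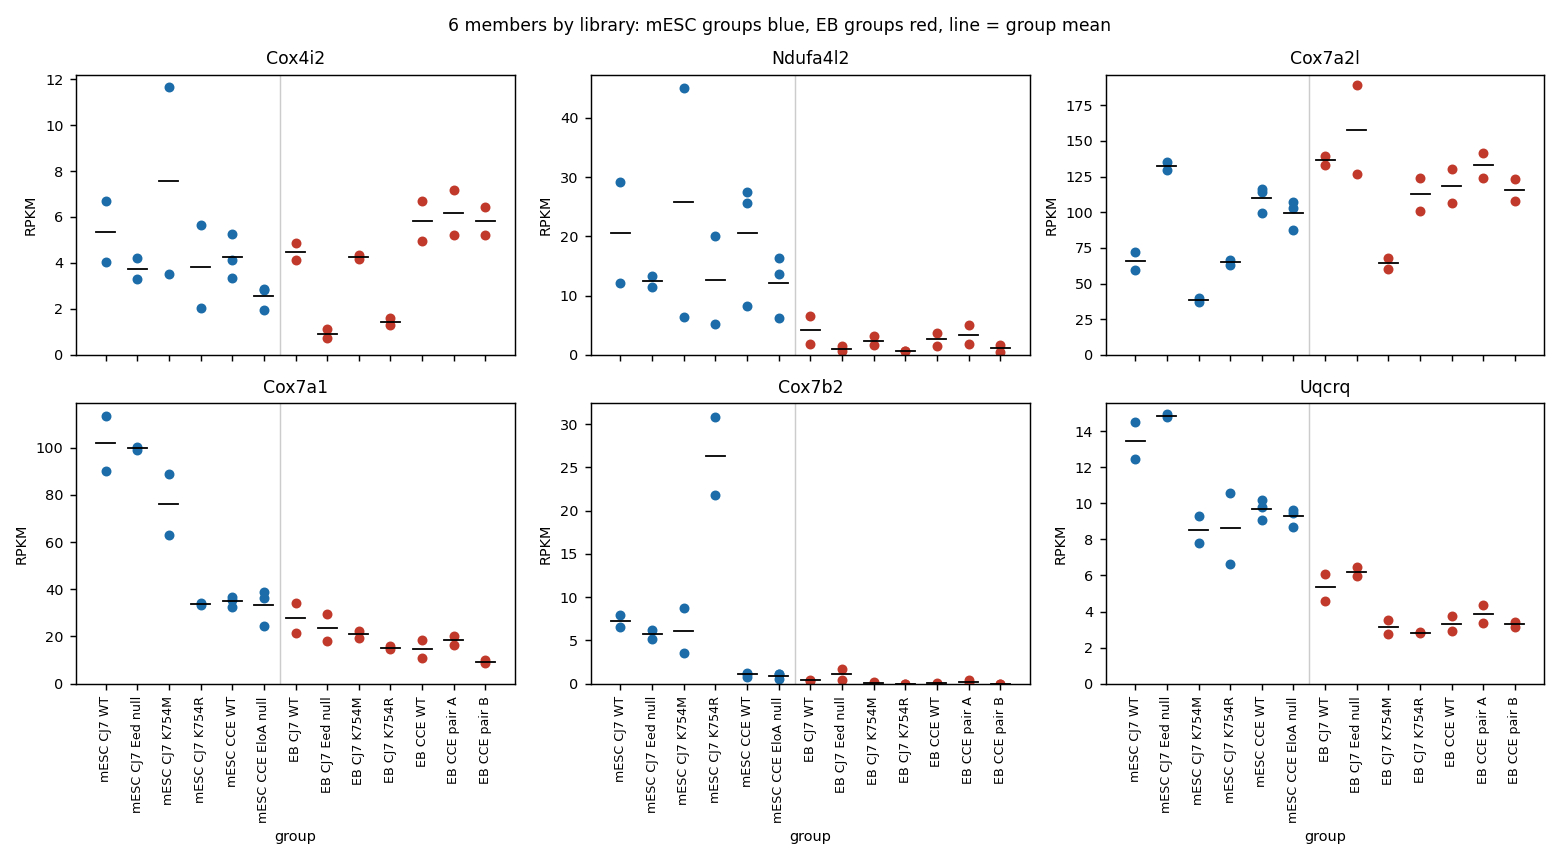
RPKM of Cox4i2, Ndufa4l2, Cox7a2l, Cox7a1, Cox7b2 and Uqcrq in each library of the 13 groups of stage, line and genotype. The K754M points are the lowest of Cox7a2l at both stages, and Eed null and K754R EBs are the lowest of Cox4i2.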

How the data were processed

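RNA was rRNA-depleted total RNA, per the labels' protocols. The authors deposited RPKM, 1 value per gene and library, in separate tables for mESCs and EBs. Of tools and builds, the submitters' processing notes list CASAVA 1.7, STAR and mm9. How reads were counted, on which annotation and strand, is not given in the sources used here. No symbol had several rows.

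Values were analysed as log2(RPKM + 0.5), which understates changes of low genes, with limma-trend (limma 3.58.1, R 4.3.3), 1 fit per stage and line and no covariate. Genes at 0.25 RPKM or more in at least 2 libraries of a fit were tested (21012, 18460, 19300 and 17735 genes for CJ7 mESCs, CCE mESCs, CJ7 EBs and CCE EBs). Benjamini-Hochberg adjustment ran over all of them, and genes below an adjusted p of 0.05 were called. "Rose" and "fell" mean called. Fits were tested on simulated data. Plots used Python 3.11.15, pandas 2.3.3, numpy 2.4.6 and matplotlib 3.10.9.

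Named members are at most 8 called each way per comparison, or the 3 smallest p-values, the tissue isoforms and the 2 most abundant per complex, with exceptions marked. In CCE mESCs the deviations of same-numbered libraries correlated at 0.65, 0.33 and 0.37, so the numbers were taken to pair them, a hint from the data. EloA null library 2 correlated as much with wild type library 3 (0.334) as with wild type library 2 (0.327). Only the libraries numbered 1 thus stood clearly apart, and the pairing of the others is uncertain. Alternatives were a pseudocount of 0.1, no filter, rescaling by the median ratio, a replicate block and leaving out each library. The members and gene lists were chosen with earlier results of these data known.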

Additional observations from a re-analysis of the deposited data

Results flagged for a closer look

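Ndufb4, an accessory subunit of complex I, had changes of opposite sign at the 2 stages in a pair of CJ7 genotypes, of which it passed the test in Eed null mESCs (limma adjusted p = 0.0433) and K754R EBs (0.0309) and not in Eed null EBs (0.0726) or K754R mESCs (0.308). In Eed null cells its log2 change from wild type was 0.71 in mESCs and -0.29 in EBs, and in K754R cells 0.42 in mESCs and -0.49 in EBs, with both libraries of the genotype above both wild type libraries in mESCs and below both in EBs each time. The 2 genotypes share their wild type libraries, where Ndufb4 was 9.48 and 10.6 RPKM in mESCs and 21.5 and 21.9 in EBs. The difference between the stages was not tested.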

How the results depend on the processing

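None of 45 named changes (21 called) in the comparisons of genotypes changed direction under the settings run. Their 366 values under other settings gave 281 on the same side of the threshold, 79 that lost a call and 6 that gained 1. Leaving out 1 library in turn left 0 to 1 of the 12 members called in Eed null mESCs, 3 to 20 against 9 in Eed null EBs, 0 to 2 against 3 in K754R EBs, and 0 against 1 for K754R against K754M in EBs. Without the filter 5 members were called in Eed null EBs. Outside CCE mESCs, with 2 libraries per group, the labels give the libraries no more than a shared number. The deviations of same-numbered libraries correlated at 0.29 to 0.60 in CCE EBs and 0.04 to 0.36 in CJ7 EBs, a hint of pairing from the data and not the design. The replicate block there gave 20 members in Eed null EBs, 1 in K754M EBs (Cox7a2l, limma adjusted p = 0.0361), 12 in K754R EBs, 2 for K754R against K754M in EBs, 2 in pair B and 6 for pair B against pair A, beside the 8 in EloA null mESCs. A share of all genes stands beside only the last of these counts (12.4%), so the others are no result about the members. Nor are the counts with a library left out or without the filter, which have no such share either. Summing several rows of 1 symbol was not run, since no symbol had several. The stage descriptions and promoter counts have no other setting. Depth limits the low isoforms most. The cause of these differences was not tested.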

Other observations

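In all 7 EB groups library 1 had higher values than library 2 for most members at 1 RPKM or more: 65 of 82 in CCE wild type, 69 of 82 in pair A, 70 of 81 in pair B, 53 of 82 in CJ7 wild type, 68 of 80 in Eed null, 68 of 82 in K754M and 72 of 81 in K754R. The median log2 ratio of library 1 to library 2 was 0.06 to 0.40 for the members and -0.10 to 0.01 for all genes. Malat1, a nuclear RNA, was lower in library 1 in each of these groups, for instance 463 against 732 RPKM in CJ7 wild type and 631 against 796 in Eed null. The labels do not say what a replicate number stands for.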
